A study of Homo sapiens with 10 samples.

Results

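LRPPRC and SLIRP are the 2 partners of one mitochondrial RNA-binding complex, and their own messenger RNAs were followed here through the C-to-U edits that Ribo-STAMP leaves on mRNA. Both genes were taken by name, as every listed edit whose Ensembl gene identifier belongs to LRPPRC or SLIRP. This gave 2 of 10631 listed genes and 619 of 657165 listed entries, 566 for LRPPRC and 53 for SLIRP. The pair was selected on earlier results of these data, the edited reads of HEK293T Ribo-STAMP against APOBEC1-only libraries among them, so the HEK293T values are given as a description, without a test.

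LRPPRC carries many pentatricopeptide repeats, a helical motif that binds single-stranded RNA, and SLIRP is a small protein with an RNA recognition motif. Both are encoded in the nucleus, translated on cytosolic ribosomes and imported into mitochondria, where the complex protects mitochondrially encoded mRNAs from decay and helps their polyadenylation and translation. Each protein is unstable without the other, and inherited LRPPRC defects cause a form of Leigh syndrome with low cytochrome c oxidase. Their mRNAs differ greatly in size, which matters in a long-read assay.

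Ribo-STAMP joins RPS2, which sits in the small subunit of the ribosome, to APOBEC1, an enzyme that turns cytidine into uridine. PacBio full-length cDNA reads of polyadenylated RNA then show the edits that mRNA collected near ribosomes. Every library came from cells with a doxycycline-inducible vector kept in 1 ug/mL doxycycline. The groups were HEK293T Ribo-STAMP and HEK293T APOBEC1-only, both induced for 72 h (3 libraries each), and MDA-MB-231 Ribo-STAMP cells induced for 48 h, with 100 uM CoCl2 for 48 h or untreated (2 libraries each). HEK293T is a human embryonic kidney line, MDA-MB-231 was derived from a triple-negative breast tumour, and CoCl2 is a hypoxia mimic that stabilises hypoxia-inducible factors. The unfused deaminase was expressed only in HEK293T, so MDA-MB-231 has no measure of editor background, and the lines differ in library kit and induction time, so no test was made between them. Whether the numbered replicates were separate cultures is not stated, so each p-value reflects the spread between these libraries alone, which may be technical.

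The libraries held 1120240 to 1204721 reads on listed isoforms in MDA-MB-231 and 81591 to 203093 in HEK293T. Of the genes fixed as line markers, the 9 for MDA-MB-231 summed to 559 to 697 edited reads in that line and 0 to 3 in HEK293T. The 6 for HEK293T did not separate the lines as a sum, 1 to 128 edited reads in HEK293T and 49 to 151 in MDA-MB-231. Among them NEFM and LIN28B were listed in HEK293T alone, CKB was listed in both lines, NEFL was not listed, and PEG10 and NES were listed only in MDA-MB-231. Of 26 hypoxia-induced genes, 7 of 13 tested had more edited reads in CoCl2 than in untreated cells past the test and none had fewer (limma, adjusted p under 0.05), where 12.1% of all tested genes were called higher and 2.9% lower. On coverage 9 of 17 were called higher and 1 lower, SLC2A1 (-0.58, adjusted p = 0.0198 by limma), the glucose transporter GLUT1, against 24.5% of all genes higher and 19% lower. Without either CoCl2 library no gene at all was called higher, on edited reads or on coverage.

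The reference gene models set the scale of each mRNA. LRPPRC (ENSG00000138095, transcript ENST00000260665) lies on the minus strand at chr2:43886508-43996005 of GRCh38. It has 38 exons, a transcript of 6335 bases and 1394 codons with 804 coding cytidines. SLIRP (ENSG00000119705, transcript ENST00000557342) lies on the plus strand at chr14:77708071-77717598 of GRCh38, with 4 exons, a transcript of 408 bases and 109 codons with 63 coding cytidines. In MDA-MB-231 all 70 edited LRPPRC positions and all 26 edited SLIRP positions of these transcripts fell on a cytidine of the coding sequence.

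The 2 SLIRP exons with most edited reads are shown because most of the SLIRP edited reads lie in them. Capitals mark each cytidine that was edited in at least 1 MDA-MB-231 read, and the sequence is that of GENCODE 29 on GRCh38, plus strand, at chr14:77715772-77715879 for exon 3 and chr14:77717496-77717558 for the coding part of exon 4.
SLIRP exon 3: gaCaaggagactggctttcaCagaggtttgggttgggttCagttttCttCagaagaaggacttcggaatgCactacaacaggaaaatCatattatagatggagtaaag
SLIRP exon 4: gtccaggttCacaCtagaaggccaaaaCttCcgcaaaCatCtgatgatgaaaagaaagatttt

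LRPPRC exon 3 at chr2:43979826-43979948, minus strand, is shown beside them as the LRPPRC exon with most edited positions among those with most edited reads. Its 123 coding bases hold 23 cytidines, of which 7 were edited.
LRPPRC exon 3: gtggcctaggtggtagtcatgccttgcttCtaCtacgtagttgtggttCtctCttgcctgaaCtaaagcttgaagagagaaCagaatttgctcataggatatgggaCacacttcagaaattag

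The 4 SLIRP positions with most edited reads in MDA-MB-231 and 6 of the LRPPRC positions with 2 or more, named by their GRCh38 coordinate, are shown with 10 bases on each side, the edited cytidine in capitals, because the base before it is the one that APOBEC1 is known to read. The first 3 LRPPRC positions had 3 edited reads each. The other 3 had 2 each and are tied with 8 positions not shown; among ties, positions seen in more libraries and then those nearer the start codon were taken. An A stands before the edited cytidine in the positions shown, and a U before 2 of the tied ones, so the choice is no measure of the preference, which is counted over all positions below.
SLIRP 77717509, exon 4: caggttcacaCtagaaggcca
SLIRP 77717533, exon 4: cttccgcaaaCatctgatgat
SLIRP 77715792, exon 3: ctggctttcaCagaggtttgg
SLIRP 77717523, exon 4: aaggccaaaaCttccgcaaac
LRPPRC 43973884, exon 10: gagaagctaaCagactactgt
LRPPRC 43905718, exon 31: ctcatcataaCgcaagttagg
LRPPRC 43982427, exon 2: cggaggactaCtgagcccagc
LRPPRC 43979886, exon 3: cttgcctgaaCtaaagcttga
LRPPRC 43977048, exon 5: aatcgagtgaCataccagaga
LRPPRC 43963665, exon 12: attgggagtaCatcctgatca

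LRPPRC was the member that HEK293T showed. It had 402, 210 and 190 edited reads in the 3 Ribo-STAMP libraries, against 1, 6 and 0 in the 3 APOBEC1-only libraries. The groups do not overlap, and the APOBEC1-only library with 0 does not list the gene at all; a count of 0 allows up to 3.69 edited reads (exact Poisson, 95%, counting error only). Scaled to library depth, LRPPRC averaged 251 ± 87.4 edited reads in Ribo-STAMP cells and 2.31 ± 3.23 in APOBEC1-only cells (SD, n = 3 each), a 109-fold difference. This is no mark of LRPPRC, because 652 of 654 tested genes had more edited reads with Ribo-STAMP (99.7% called higher and 0.153% lower, 99.8% in either direction) and the gene was chosen with that contrast in view. Scaling by the edited reads themselves (trimmed mean of M-values) lowers the LRPPRC log2 difference to 4.59 from 6.67.

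Coverage of LRPPRC overlapped between the HEK293T groups, while editing per read did not. LRPPRC was covered by 253, 135 and 106 reads in the Ribo-STAMP libraries, against 97 and 123 reads in the 2 APOBEC1-only libraries that list it. The edited reads per 100 covering reads, a level summed over positions that can pass 100 because a read may carry several edits, were 159, 156 and 179 with Ribo-STAMP, against 1.03 and 4.88 with APOBEC1 alone. The Ribo-STAMP libraries lie close together on this measure although replicate 1 had the most reads, with means of 165 ± 12.8 (SD, n = 3) and 2.95 ± 2.72 (SD, n = 2). The share of all genes that separate on editing per read was not counted, so the separation is no mark of LRPPRC. On edited reads 99.7% of genes tested under the filter above were called higher with Ribo-STAMP.

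Editing of LRPPRC in HEK293T ran along the whole gene at low levels. The Ribo-STAMP libraries listed 215, 127 and 130 positions spread over about 107 kb of the gene, 293 different ones in all. Of these, 157 were listed in 1 library, 93 in 2 and 43 in all 3 Ribo-STAMP libraries. The median listed position had 0.407, 0.820 and 0.943% of its reads edited, which is close to 1 read at these depths, and 56.7, 62.2 and 70.8% of positions rested on a single read. HEK293T coordinates are on another build than the annotation used here, so positions are given only as distance from the most upstream listed one.

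A few LRPPRC positions recurred with more reads. The highest, 16.0 kb from the upstream end, was edited in 17 of 245, 7 of 117 and 7 of 99 reads in the Ribo-STAMP libraries, or 6.94, 5.98 and 7.07%. The second, at 22.1 kb, had 14, 4 and 6 edited reads. Neither was listed with APOBEC1 alone. The 10 positions with most edited reads together held 142 of 802 edited reads (17.7%), so most editing lay elsewhere. The APOBEC1-only libraries listed 6 LRPPRC positions, each in 1 library, and 4 of them were also Ribo-STAMP positions (66.7% of the APOBEC1-only ones, 1.37% of the Ribo-STAMP ones).

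**Figure D1:**
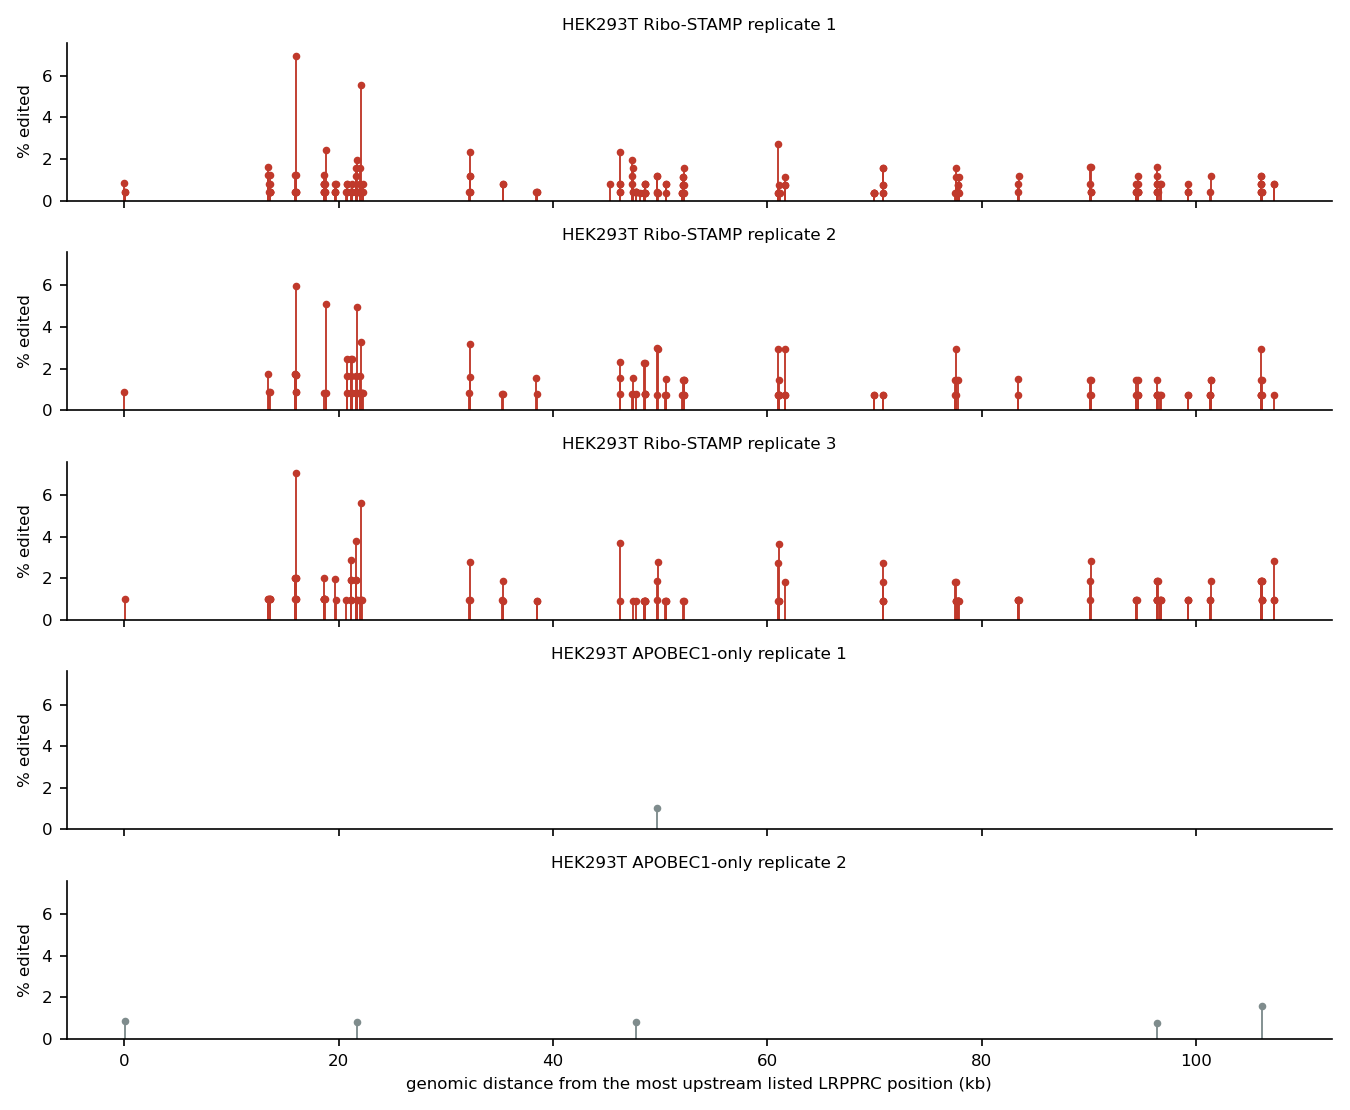
Percent of covering reads edited at each listed LRPPRC position in HEK293T, plotted against genomic distance in kb from the most upstream listed position, for the 3 Ribo-STAMP libraries (red) above the 2 APOBEC1-only libraries that list the gene (grey). The highest position reached 6.94, 5.98 and 7.07% in the Ribo-STAMP libraries, and the APOBEC1-only libraries list 1 and 5 positions.

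SLIRP was all but unseen in HEK293T. One Ribo-STAMP library, replicate 1, listed 1 edited read among 2 covering reads, and none of the other 5 HEK293T libraries listed the gene, so no fold is given. Only genes with at least 1 edited read are listed, so a gene that is not listed may have been covered without edits. Short transcripts were scarce in this line: transcripts under 1000 bases took 0.235, 0.313 and 0.642% of reads with Ribo-STAMP and 0.117, 0.108 and 0.660% with APOBEC1 alone, against 9.53 and 9.64% in CoCl2-treated and 5.02 and 6.85% in untreated MDA-MB-231 cells. The part of this in the SLIRP values was not tested.

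In MDA-MB-231 both members were listed in every library, and the SLIRP mRNA was by far the better covered. SLIRP was covered by 214 and 262 reads in CoCl2-treated and 152 and 201 reads in untreated cells. LRPPRC was covered by 13 and 10 reads in CoCl2-treated and 35.5 and 26.5 reads in untreated cells (medians over listed positions, summed over isoforms). The LRPPRC values are low in every MDA-MB-231 library and lowest with CoCl2, where fractions rest on about 10 reads.

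**Figure D2:**
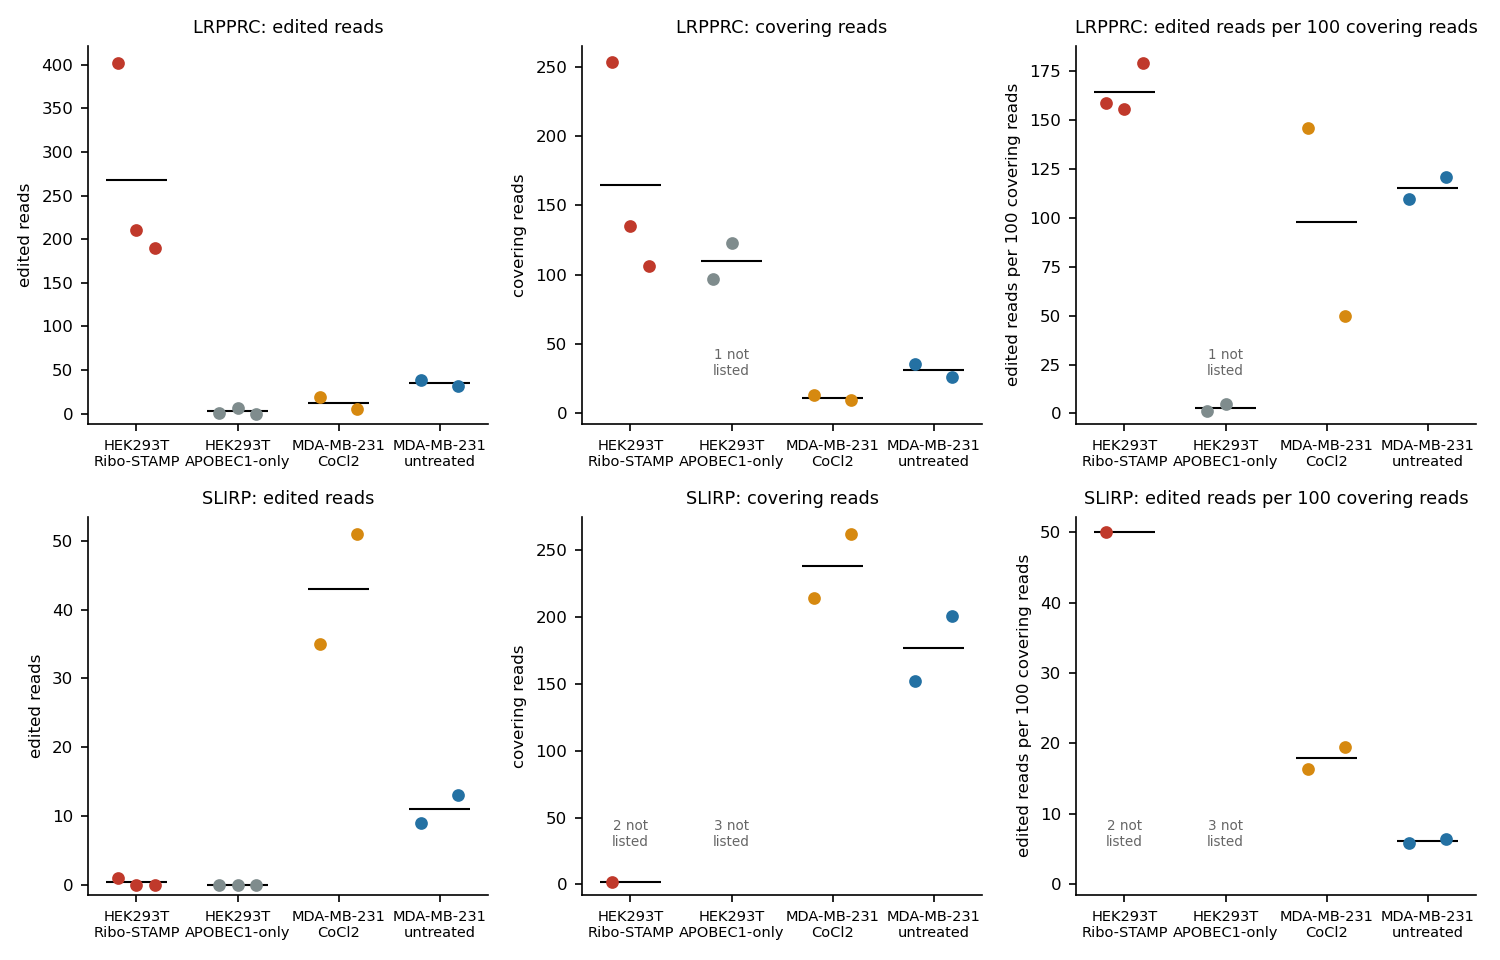
Edited reads, covering reads and edited reads per 100 covering reads of LRPPRC (top) and SLIRP (bottom) in each library, unscaled, with a point per library and a line at the group mean; "not listed" marks libraries without an entry. LRPPRC is high in the HEK293T Ribo-STAMP group and SLIRP in the 2 MDA-MB-231 groups, where CoCl2-treated cells have 35 and 51 SLIRP edited reads against 9 and 13 in untreated cells.

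Edited reads on SLIRP rose with CoCl2. Depth-scaled, SLIRP had 36.0 and 55.3 edited reads in CoCl2-treated cells, against 8.49 and 12.4 in untreated cells, and the groups do not overlap. In limma across 4097 genes (Benjamini-Hochberg) the log2 change was 2.02 ± 0.42 (SE), with an adjusted p of 0.0298. Of all genes tested, 12.1% were called higher and 2.9% lower, so a rise was not rare. SLIRP met the filter of 10 edited reads in 2 libraries through the CoCl2 libraries, since 1 untreated library had 9, so it was tested on the strength of the group where it is high. Transcript length moved with this result: with a narrow curve of log2 value against length taken out of each library, the change became 0.96 (adjusted p = 0.157 by limma), and 0.27 with a wide one, and without either CoCl2 library it was not called (2.32 and 1.71).

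LRPPRC had 19.5 and 5.42 depth-scaled edited reads in CoCl2-treated cells, against 36.8 and 30.5 in untreated cells. All CoCl2 values lie below the untreated ones, but the 2 CoCl2 libraries differ widely from each other. How many other genes separate in this way was not counted, and 2.9% of tested genes were called lower and 12.1% higher. LRPPRC met the filter of 10 edited reads in 2 libraries through the untreated libraries, since 1 CoCl2 library had 5. The gene was thus tested on the strength of the group where it is high. The log2 change of -1.59 ± 0.53 (SE) missed the threshold, with an adjusted p of 0.0584 by limma with Benjamini-Hochberg adjustment. It passed when either untreated library was left out (-1.46 and -1.72) or when depth was scaled on edited reads (-1.71). It moved away from the threshold without CoCl2 replicate 2 (-0.75, adjusted p = 0.439, limma), and was -2.43 without CoCl2 replicate 1 (adjusted p = 0.118, limma). With the effect of transcript length taken out it was -1.15 (adjusted p = 0.192, wide curve) or -1.21 (adjusted p = 0.174, narrow curve, limma).

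Coverage moved in opposite directions for the partners. Coverage is the number of reads over the isoforms listed in every library of the line, scaled by trimmed mean of M-values, and stands in for mRNA abundance; fewer cells expressing a gene and less RNA per cell cannot be told apart in it. SLIRP rose to 220 and 281 scaled covering reads in CoCl2-treated cells, against 140 and 186 in untreated cells, a log2 change of 0.62 ± 0.23 (SE, adjusted p = 0.0357, limma). LRPPRC fell to 11.3 and 10.9 scaled covering reads in CoCl2-treated cells, against 30.7 and 22.2 in untreated cells, a log2 change of -1.16 ± 0.42 (SE, adjusted p = 0.0316, limma). Such calls were common, since 24.5% of 5673 genes were called higher and 19% lower.

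These coverage changes followed transcript length across all genes. Each doubling of length went with a log2 change lower by 0.52 (slope -0.52, Spearman rho -0.64 across 5660 genes, a description since genes are not independent replicates). The slope was -0.29 between the 2 untreated libraries and 0.00 between the 2 CoCl2 libraries. With a narrow length curve removed, chosen after seeing the data, neither member was called: the LRPPRC change was -0.68 (adjusted p = 0.209) and the SLIRP change turned to -0.18 (adjusted p = 0.512, limma). A wide curve called SLIRP lower (-0.75, adjusted p = 0.0141, limma) but left the shortest transcripts as a whole below 0. SLIRP is among the shortest and LRPPRC among the longer mRNAs, and a difference in the length of the sequenced molecules and a difference in abundance cannot be told apart here. Leaving out either CoCl2 library also ended both calls, with log2 changes of 0.80 and 0.45 for SLIRP and -1.18 and -1.14 for LRPPRC, and leaving out untreated replicate 1 ended that of LRPPRC (-0.93).

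**Figure D3:**
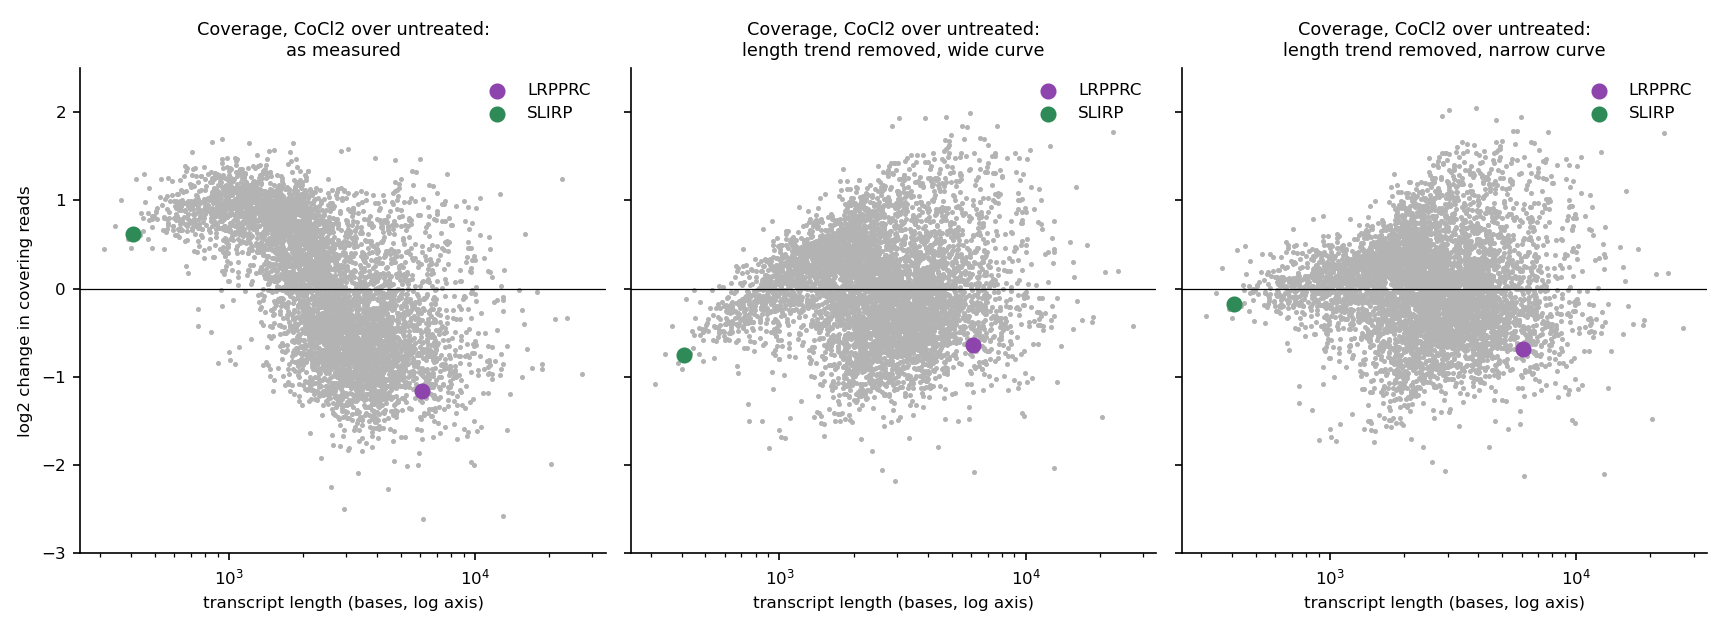
Log2 change in covering reads (CoCl2 over untreated MDA-MB-231 cells) of 5660 genes (grey) against transcript length in bases on a log axis, as measured (left), with a wide length curve removed (middle) and with a narrow length curve removed (right). LRPPRC (purple) lies at -1.16, -0.64 and -0.68, and SLIRP (green) at 0.62, -0.75 and -0.18; the wide curve leaves the shortest transcripts below 0, with a median of -0.46 for 52 genes under 600 bases.

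Set against its own coverage, SLIRP carried more edits per read with CoCl2. It had 16.4 and 19.5 edited reads per 100 covering reads in CoCl2-treated cells, against 5.92 and 6.47 in untreated cells. The 2 libraries of each group lie close together and the groups are far apart. How many other genes separate in this way was not counted. No position listed in all 4 MDA-MB-231 libraries exists in the files, so each position counted was unlisted in at least 1 library. What this did to the difference was not tested. In the model of editing per read the log2 change in odds was 1.56 ± 0.31 (SE), with an unadjusted p of 0.000898 and an adjusted p of 0.519 by limma, so it did not pass. None of 5673 genes passed (percent called 0), while 420 were higher and 64 lower at an unadjusted p under 0.05. This measure hardly followed length (slope -0.03 per doubling), and the SLIRP value was 1.19 with the narrow length curve removed and 1.46 to 1.65 when any 1 library was left out.

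LRPPRC editing per read overlapped between the conditions. It had 146 and 50 edited reads per 100 covering reads in CoCl2-treated cells, against 110 and 121 in untreated cells, so the untreated values fall between the CoCl2 ones. The log2 change in odds was -0.42 ± 0.62 (SE, adjusted p = 0.874, limma), and without CoCl2 replicate 2 it was 0.32. With 10 to 13 covering reads in the CoCl2 libraries a difference of moderate size was not detectable.

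Per cytidine the members swapped order between the conditions. Counting edited reads per 1000 coding cytidines read, SLIRP had 2.60 and 2.96 in CoCl2-treated cells and LRPPRC 1.81 and 0.622. In untreated cells SLIRP had 0.858 and 0.967, and LRPPRC 1.38 and 1.59. The LRPPRC values with CoCl2 rest on 16 and 5 edited reads over 11 and 10 covering reads, and the untreated ones fall between them. Positions edited in every MDA-MB-231 library are absent for both members, and the effect of this on the order was not tested. The LRPPRC to SLIRP ratio was thus 0.697 and 0.210 in CoCl2-treated cells, against 1.61 and 1.64 in untreated cells. The groups of this ratio do not overlap, with an exact permutation p of 0.333 (two-sided), which is the smallest that 2 libraries against 2 can give. How often other pairs of genes separate in this way was not counted. The SLIRP to LRPPRC ratio of main-isoform coverage was 19.5 and 25.7 in CoCl2-treated cells, against 4.55 and 8.38 in untreated cells (the same exact p of 0.333).

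The SLIRP edited reads crowded toward the 3′ end of its coding sequence, while its edited positions were spread over all 4 exons. Exon 4, shown above, has 63 coding bases with 13 cytidines and held 56 edited reads, 18 and 26 with CoCl2 and 6 and 6 without. Exon 3, with 15 cytidines, held 29 edited reads, while exon 2 with 13 cytidines held 12 and exon 1 with 22 cytidines held 6. Edited positions numbered 6 in exon 4, 7 in exon 3, 7 in exon 2 and 6 in exon 1. The single position 77717509 held 24 of the 56 edited reads of exon 4. Exon 4 took 51.4 and 54.2% of SLIRP edited reads in CoCl2-treated cells, against 75 and 50% in untreated cells, so its share was not set apart by treatment.

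The position SLIRP 77717509 in exon 4 carried most. It was edited in 11 of 214 and 10 of 257 reads in CoCl2-treated cells, against 0 of 148 and 3 of 197 reads in untreated cells. As percentages these are 5.14% (95% exact binomial interval 2.59 to 9.01) and 3.89% (1.88 to 7.04), against 0% (up to 2.46) and 1.52% (0.315 to 4.39). Intervals cover counting error only, and the position was picked for its reads. The next positions showed smaller counts: 77717533 had 2 and 6 edited reads with CoCl2 and 2 and 0 without, and 77715792 in exon 3 had 2 and 5 with CoCl2 and 0 and 1 without. No position listed in all 4 MDA-MB-231 libraries exists in the files, for any gene, so a position edited in every library would be missing from these counts. It would also be missing from the edited reads and the editing per read above. The effect of this loss on the CoCl2 differences was not tested.

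LRPPRC edits were scattered in contrast. Its 87 main-isoform edited reads fell on 70 positions, and no position summed to more than 3 edited reads over the 4 libraries. Position 43973884 in exon 10 had 2 and 0 edited reads with CoCl2 and 1 and 0 without, and 43905718 in exon 31 had 0 and 0 with CoCl2 and 1 and 2 without. Exon 3 and exon 31 held most, 8 edited reads each.

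**Figure D4:**
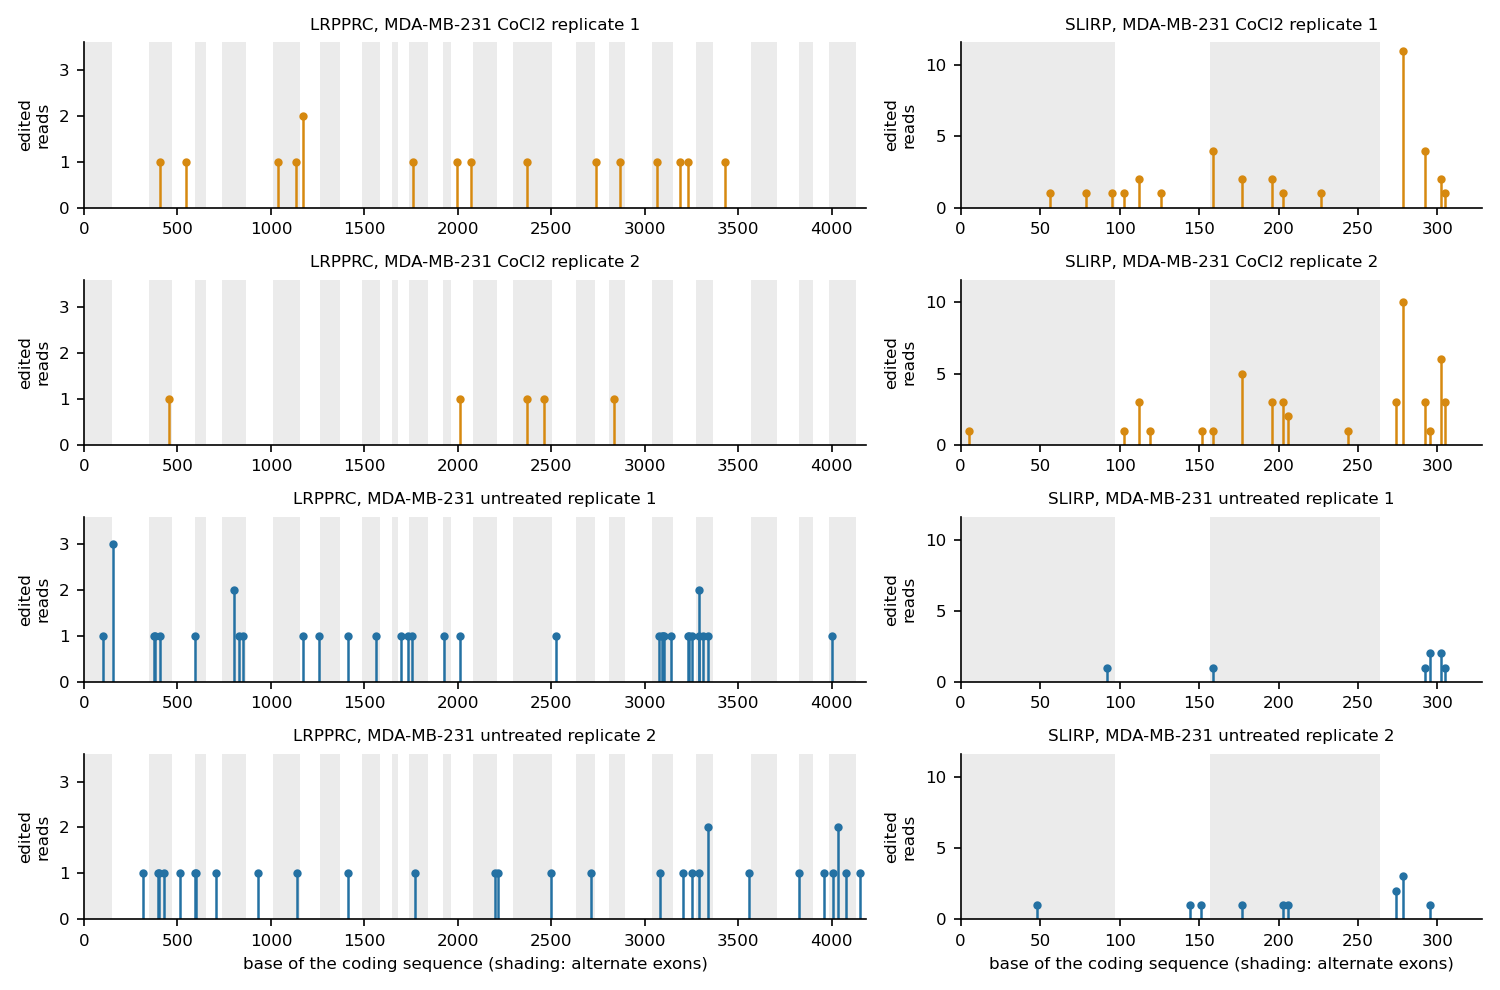
Edited reads at each edited position of LRPPRC (left) and SLIRP (right) along the coding sequence, numbered in bases from the start codon, in the 2 CoCl2-treated (orange, upper) and 2 untreated (blue, lower) MDA-MB-231 libraries; shading marks alternate exons. LRPPRC positions hold 1 to 3 reads each along the whole sequence, and the tallest SLIRP position, in exon 4, holds 11 and 10 reads with CoCl2.

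The place of the edits along the coding sequence did not separate the conditions. The median LRPPRC position lay at 49.5 and 56.7% of the coding sequence in CoCl2-treated cells, against 44.0 and 56.3% in untreated cells. The median SLIRP position lay at 54.1 and 62.1% with CoCl2, against 89.8 and 62.1% without. Both comparisons gave an exact permutation p of 0.667 (two-sided), and weighting by edited reads turned the SLIRP difference to 2.60 percentage points from -17.8.

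The base before the edited cytidine was mostly A or U, the known preference of APOBEC1. For LRPPRC this held at 65 of 70 positions (92.9%), against 399 of its 804 coding cytidines (49.6%). For SLIRP it held at 18 of 26 positions (69.2%) but in 94 of 103 edited reads (91.3%), against 34 of 63 coding cytidines (54.0%). The SLIRP positions outside this context were thus ones with few reads. By treatment the share of edited reads in this context was 91.6% in CoCl2-treated and 90.0% in untreated cells for SLIRP, and 100% and 92.4% for LRPPRC.

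A C-to-U change can create a stop codon. This was the predicted outcome at 5 of 70 edited LRPPRC positions (7.14%), against 69 of 804 coding cytidines (8.58%), and at 1 of 26 SLIRP positions (3.85%), against 8 of 63 (12.7%). The amino acid was predicted to stay the same at 34 LRPPRC positions and 6 SLIRP positions.

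One transcript carried nearly all reads of each gene. In HEK293T every LRPPRC and SLIRP entry belonged to the transcripts named above. In MDA-MB-231 the other LRPPRC isoforms had 1 or 2 covering reads each, 2 isoforms in CoCl2 replicate 1 and 2 in each untreated library. The other SLIRP isoform, ENST00000238688, had 5 covering reads in CoCl2 replicate 2, against 4 in each untreated library, with 3 edited reads in the first and 1 in each of the others. No isoform switch could be assessed at such depth.

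The complex belongs to a wider set of nuclear-encoded factors that transcribe, process, decay and translate mitochondrial RNA, and members went both ways. Of 43 such genes 41 were listed and 34 had enough coverage to test, with 8 called higher and 8 lower in CoCl2-treated cells (median log2 change -0.26, against -0.04 over all genes). These counts are near the shares over all genes, 24.5% higher and 19% lower, so they are no result about the set, and the genes are named as single calls. Those called higher besides SLIRP (0.62) were TUFM (0.87) and TSFM (0.85), mitochondrial elongation factors, REXO2 (0.86), an RNA exonuclease, HSD17B10 (0.85), a subunit of mitochondrial RNase P, TACO1 (0.82), a translational activator of COX1, MRRF (0.75), a ribosome recycling factor, and FASTK (0.72), of the FASTK family of RNA-binding proteins. Those called lower besides LRPPRC (-1.16) included GFM2 (-1.42) and GFM1 (-0.87), of the mitochondrial elongation factor G family. The others were PTCD3 (-1.37) and PTCD1 (-0.72), pentatricopeptide proteins, SUPV3L1 (-1.27), the RNA helicase of the degradosome, FASTKD5 (-1.25) and TRMT5 (-0.98), a tRNA methyltransferase.

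Most of these calls were lost with length taken out. With the narrow length curve removed, 2 of 33 members were called higher, TUFM (0.70) and MRRF (1.22), and 2 lower, PTCD3 (-0.88) and SUPV3L1 (-1.06), where 9.28% of 5660 genes were called higher and 6.41% lower. With the wide curve 2 were called higher, again TUFM (0.75) and MRRF (1.30), and 4 lower, PTCD3 (-0.83), SUPV3L1 (-1.14), FASTKD5 (-0.96) and SLIRP (-0.75), where 10.3% of genes were called higher and 8.83% lower. Leaving out either CoCl2 library ended the calls of the members, as it ended nearly all calls over all genes, so the loss is not particular to the set.

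**Figure D5:**
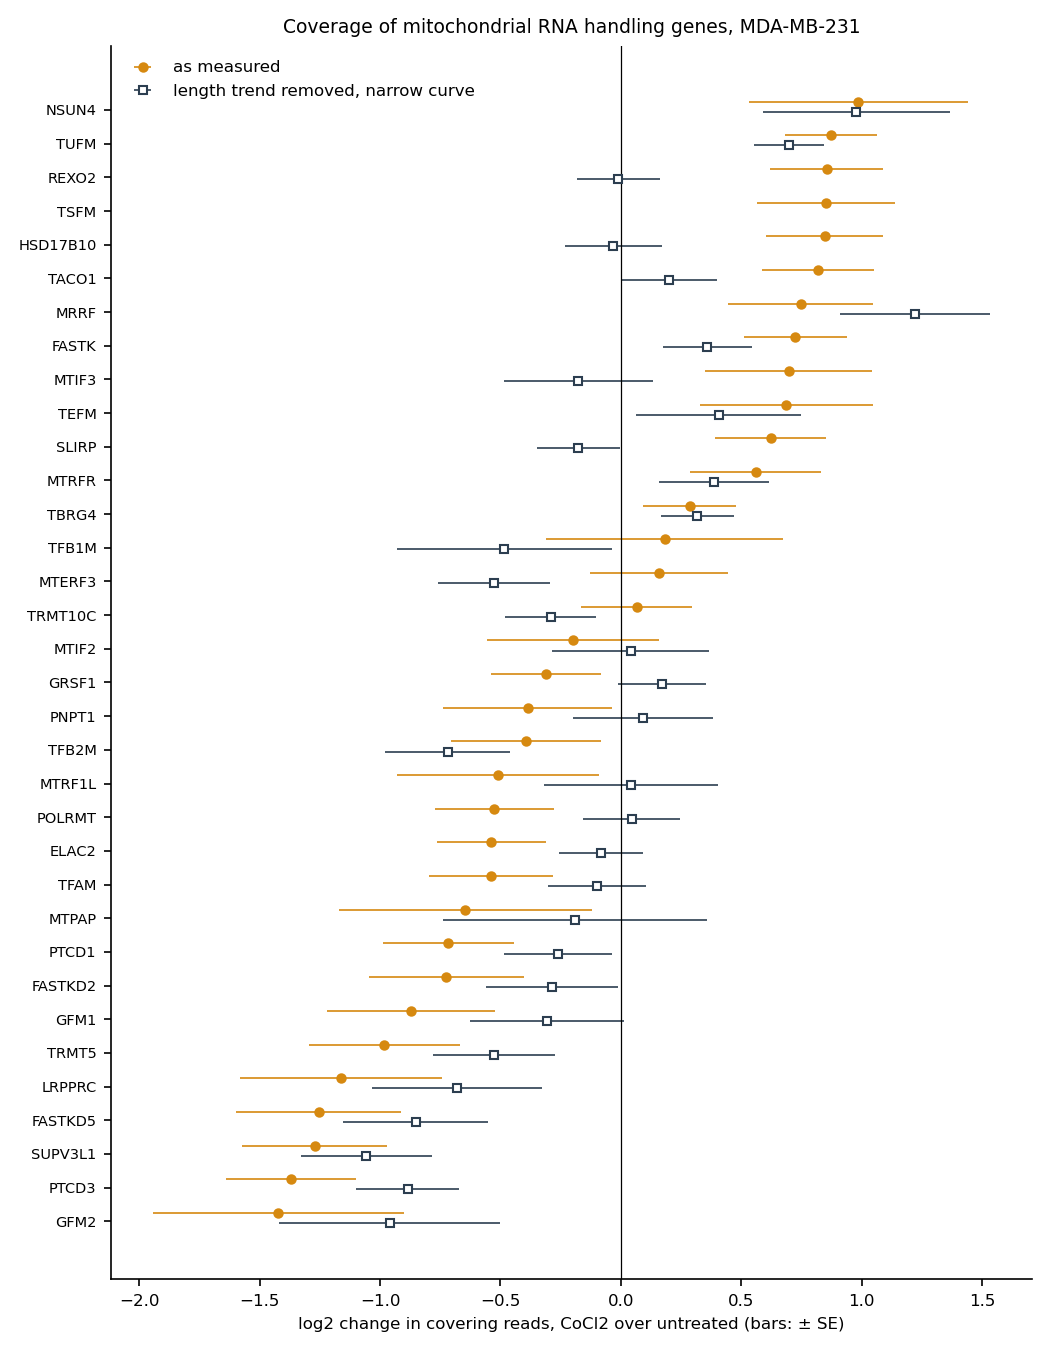
Log2 change in covering reads, CoCl2-treated over untreated MDA-MB-231 cells, of 34 mitochondrial RNA handling genes as measured (orange circles) and with the narrow length curve removed (open squares); bars are ± SE, and TSFM has no length in the annotation used. SLIRP lies at 0.62 as measured and -0.18 with the curve removed, and LRPPRC at -1.16 and -0.68.

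By edited reads 21 members were tested, with 5 called higher and 1 lower (median log2 change -0.13, against 0.19 over all genes), where 12.1% of all genes were called higher and 2.9% lower. Besides SLIRP these were REXO2 (1.81), HSD17B10 (1.18) and TUFM (1.17). MRRF (1.68) and, lower, SUPV3L1 (-1.69) met the filter only through the group where they are high, so their calls support nothing: MRRF had 16 and 23 edited reads in CoCl2-treated cells, against 7 and 5 in untreated cells, and SUPV3L1 had 8 and 7, against 33 and 26. The wide length curve left 1 member called higher and 1 lower, where 2.01% of 4089 genes were called higher and 1.47% lower. The narrow one left the same counts, where 2.64% and 1.76% of genes were called. Leaving out either CoCl2 library, or the filter, ended the calls of the members, as it ended nearly all calls over all genes. The members with most edited reads over the 4 libraries were TBRG4 with 517, ELAC2 with 497, TUFM with 369, FASTK with 239, REXO2 with 186 and GRSF1 with 185, none of which is a partner of the complex. None of 34 members passed on editing per read.

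The mRNAs that the complex binds were themselves listed. The mitochondrially encoded mRNAs, which are translated inside mitochondria, summed to 501 and 414 edited reads in CoCl2-treated cells, against 303 and 405 in untreated cells. In HEK293T they summed to 0, 4 and 7 edited reads with Ribo-STAMP, against 10, 5 and 33 with APOBEC1 alone. In MDA-MB-231, none of 8 tested was called on edited reads, and 4 of 9 were called higher on coverage, MT-CO3 (0.82), MT-CO2 (0.79), MT-CYB (0.60) and MT-CO1 (0.50), where 24.5% of all genes were. The plan for this set held presence and edited reads only, so its coverage was examined beyond the plan. With either length curve removed none of the 9 was called higher and 5 were called lower. Over all genes, 10.3% were called higher and 8.83% lower with the wide curve, and 9.28% and 6.41% with the narrow one. With the narrow curve the 5 called lower were MT-ND2 (-0.998), MT-ND5 (-0.79), MT-ND4 (-0.72), MT-ND1 (-0.71) and MT-ATP6 (-0.70). The 4 above lay between -0.27 and -0.06. As measured, MT-ND2 (-0.13) and MT-ND5 (-0.43) already lay below 0, MT-ND4 at 0.00, and MT-ND1 (0.17) and MT-ATP6 (0.17) above it, none of them called. The calls thus depend on whether length is taken out, and the mRNAs called higher were not the ones called lower.

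The genes whose edited-read profile over the 10 libraries lay nearest to that of LRPPRC were sought among 460 other genes, those with at least 10 edited reads in every Ribo-STAMP library. LRPPRC itself falls below that limit, with 5 edited reads in MDA-MB-231 CoCl2 replicate 2. No gene with so few edited reads in that library was therefore compared. By root mean square distance on the log2 scale the nearest were CAND1 (0.73), CANX (0.79), PLS3 (0.92), HSP90B1 (0.96) and EPRS1 (0.98), against a median of 1.84. CAND1, a regulator of cullin ubiquitin ligases, had 284, 116 and 58 edited reads in HEK293T Ribo-STAMP libraries, against 2, 11 and 0 with APOBEC1 alone. In MDA-MB-231 it had 24 and 13 edited reads with CoCl2, against 51 and 42 without. SLIRP had at least 10 edited reads in only 3 libraries and was not profiled.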

How the data were processed

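Edits were measured in 10 long-read libraries, grouped by their labels. The authors deposited 1 list per library, in which each entry holds another kind of value than a plain count column: a pair of edited reads and covering reads at a coding position of an annotated isoform. No header says so, and the pair was recognised from the numbers themselves. Positions without an edited read are not listed, and those edited in every library of a line are absent. How edits were called, filtered and assigned to a strand is not given in the sources used here. Per the submitters' processing notes the builds were hg19 and hg38. The MDA-MB-231 positions matched GRCh38 (GENCODE 29) and the HEK293T ones did not, so no HEK293T coordinate or sequence is given. Symbols were matched for 10577 of 10631 gene identifiers.

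Edited reads were summed per gene and divided by relative depth, the median coverage ratio of the isoforms that all libraries of that line list (405 isoforms for HEK293T and 7313 for MDA-MB-231). Coverage is the median over an isoform's positions, scaled by trimmed mean of M-values (30% and 5% trims). Editing per read is the log2 odds of edited to unedited reads over the union of positions. Genes with 10 or more edited reads in 2 MDA-MB-231 or 3 HEK293T libraries, or mean coverage of at least 10, were fitted with limma 3.58.1 in R 4.3.3 (trend on intensity) on log2 (value + 1), or a logit with 0.5 added, two-sided, with Benjamini-Hochberg adjustment at 0.05 over all genes tested. A fold change on this scale understates the change of low genes. Other computations used Python 3.11.15, pandas 2.3.3 and SciPy 1.17.1. The fit was also run on simulated counts with equal depth and no length trend, so that run does not cover the length trend of these libraries.

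Alternatives were another pseudocount, no filter, other scalings, position filters at 20 reads or 50% edited, all listed isoforms, leaving out each library, a replicate block, and a loess curve of each library's values on transcript length (span 0.75). A narrow curve (span 0.1) was added after seeing that the wide one did not follow the shortest transcripts, and the report uses it. The members and gene lists were chosen with earlier results of these data known. The genes named were both members, listed mitochondrial RNA genes that passed a test in MDA-MB-231, the 6 of them with most edited reads, and the 5 nearest in profile to LRPPRC.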

Additional observations from a re-analysis of the deposited data

How the results depend on the processing

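Depth limits LRPPRC in MDA-MB-231, where 10 to 13 reads cover it with CoCl2 and no comparison is possible at 20 or more covering reads per position, since no CoCl2 value remains, and SLIRP in HEK293T, with 1 edited read in all. The cause of the changes below was not tested unless named.

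Replicate numbers 1 and 2 did not pair the HEK293T libraries. Their same-number correlations of deviations (0.0872 and 0.120) lay below the different-number ones (0.155 and 0.182). The HEK293T libraries numbered 3 went together (0.332), and each correlated negatively with those numbered 1 and 2 of the other group (-0.254 to -0.185). Deviations cancel out within a group, so these negative values follow in part from the positive value and are no separate evidence. Whether the libraries numbered 3 share a batch was not tested. Numbers did not pair the MDA-MB-231 libraries, with 0.0228 for edited reads, 0.0192 for coverage and -0.00667 for editing per read. With a replicate block the LRPPRC edited-read change of -1.59 passed (adjusted p = 0.00605, limma), with 783 genes higher and 305 lower. The block changed no other call of the members.

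In HEK293T, 2460 of 3619 tested genes were higher and 0 lower with no filter beyond a mean of 1 edited read. Of 654, 308 were higher with trimmed mean of M-values scaling (LRPPRC log2 difference 4.59), and 0 genes were lower with either position filter. Leaving out 1 library gave 649 to 652 higher, 0 to 1 lower and 6.04 to 7.44 for LRPPRC.

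For MDA-MB-231 edited reads, genes higher and lower numbered 0 and 0 with no filter (more genes tested), 54 and 75 at positions with 20 or more reads, 82 and 60 with the wide length curve, 108 and 72 with the narrow one, and 254 and 215 scaled by reads on listed isoforms, while trimmed mean of M-values scaling gave 217 lower and -1.71 for LRPPRC, past the threshold. SLIRP was no longer called with no filter (2.02), at 20 or more reads (1.97), or with the wide (0.27) or narrow (0.96) curve. Leaving out 1 library gave 0 to 1092 higher, 0 to 581 lower, -2.43 to -0.75 for LRPPRC and 1.71 to 2.32 for SLIRP.

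For coverage, genes higher and lower numbered 585 and 500 with the wide curve, 525 and 363 with the narrow one, and 890 and 294 with all listed isoforms. LRPPRC was no longer called with the wide (-0.64) or narrow (-0.68) curve or all isoforms (-1.16), nor SLIRP at 20 or more reads (0.50) or with all isoforms (0.64), and SLIRP changed sign with the wide (-0.75, adjusted p = 0.0141) and narrow (-0.18) curves. Leaving out 1 library gave 0 to 1977 higher, 1 to 1833 lower, -1.39 to -0.93 for LRPPRC and 0.42 to 0.83 for SLIRP.

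Editing per read kept 0 calls under every alternative run. The LRPPRC change ranged from -1.15 to 0.32 when 1 library was left out, changing sign without CoCl2 replicate 2, and the SLIRP change kept its direction, 1.19 to 1.65 over all alternatives. The LRPPRC place along the coding sequence ranged from -3.20 to 9.11 percentage points with 1 library left out, that of SLIRP from -31.7 to -3.98 and 2.60 when weighted by edited reads.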
